A study of Homo sapiens with 6 samples.

Results

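The 10 genes described here, GAS5, SNHG1, SNHG5, SNHG6, SNHG7, SNHG8, SNHG12, SNHG16, ZFAS1 and EPB41L4A-AS1, are long non-coding host genes of small nucleolar RNAs (snoRNAs). They were chosen by name, and each had 1 row among the 20745 genes of the deposited expression table. RNA was sequenced from AB 8/13 cells, a conditionally immortalized human podocyte line that divides at 33°C and was differentiated at 37°C for 7 to 10 days. There were 3 vehicle cultures and 3 cultures given 1 µM levamisole, an anthelmintic and immunomodulator used to spare steroids in nephrotic syndrome, for 24 hours. The labels place both groups in serum-free medium for that time, whereas the study's methods name complete medium with 10% fetal bovine serum for the vehicle cultures. Each culture of a group came from a different passage of the line, so the replicates are passages of 1 immortalized line and not donors.

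The value used for each gene is its base mean, for which the authors divided the read count in each library by the size factor of that library and took the mean across libraries. A base mean pools the vehicle and levamisole cultures, so it gives the level of a host RNA in these podocytes and not its level in either group. No spread between cultures and no test of levamisole against vehicle is given here, because the columns that hold the authors' own comparison were not used. The depth of the single libraries is unknown, and none of the differences in level below could be set against replicate error.

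Host genes of this kind make 2 products from 1 transcript. The introns are cut out and trimmed to snoRNAs, which guide the chemical modification of ribosomal RNA, either 2′-O-methylation (box C/D snoRNAs) or pseudouridylation (H/ACA snoRNAs). The spliced exons leave the nucleus as a long RNA with short open reading frames, which is loaded on ribosomes and then removed by nonsense-mediated decay. Transcription of many host genes starts at a C followed by a run of pyrimidines, the 5′-terminal oligopyrimidine (TOP) tract that they share with ribosomal protein genes and that couples their translation and turnover to growth signals. GAS5, named for its accumulation in growth-arrested cells, also carries a hairpin that resembles a glucocorticoid response element and can bind the glucocorticoid receptor.

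The start regions were searched for pyrimidine runs. RefSeq (GRCh38.p14) gave a start for 9 of the 10 genes, and a run of at least 6 C or T with at least 1 C, overlapping the 5 bases on either side of the start, was found at 7 of the 9. The same run was found at 22.9% of all 35116 RefSeq start sites. The first transcribed base was C for 6 of the 9, against 14.7% of all start sites. Each line covers 40 bases before the start and 30 from the start on, 5′ to 3′ on the gene's own strand. Capitals mark the longest such pyrimidine run and, further upstream, the strings TATAAA or TATATAA.
SNHG12 (chr1:28581844-28581913, minus strand): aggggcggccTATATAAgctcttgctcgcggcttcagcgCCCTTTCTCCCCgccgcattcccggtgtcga
SNHG5 (chr6:85678704-85678773, minus strand): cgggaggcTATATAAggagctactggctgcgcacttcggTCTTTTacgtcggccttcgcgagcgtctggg
ZFAS1 (chr20:49278602-49278671, plus strand): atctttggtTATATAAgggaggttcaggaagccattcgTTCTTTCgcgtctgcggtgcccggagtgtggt
SNHG7 (chr9:136728155-136728224, minus strand): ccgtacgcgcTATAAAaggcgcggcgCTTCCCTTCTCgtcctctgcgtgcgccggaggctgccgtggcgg
SNHG1 (chr11:62855856-62855925, minus strand): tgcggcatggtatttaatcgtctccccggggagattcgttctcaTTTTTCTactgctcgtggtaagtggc
SNHG8 (chr4:118278722-118278791, plus strand): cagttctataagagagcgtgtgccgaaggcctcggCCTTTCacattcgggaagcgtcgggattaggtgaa
SNHG16 (chr17:76557724-76557793, plus strand): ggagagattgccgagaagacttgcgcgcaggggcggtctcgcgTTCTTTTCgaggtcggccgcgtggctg

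In SNHG12, SNHG5 and ZFAS1 the first transcribed base was a C inside the run in capitals, with more pyrimidines after it. The run of SNHG8 ended at its first base, while those of SNHG1 and SNHG16 began at bases 5 and 4 of the transcript. SNHG12 had the longest run of these 7, with 12 pyrimidines from the base before the start to base 11 of the transcript. SNHG7 had 11, but they ended 4 bases before the start. A second run of 6 in SNHG7, tcctct, is not in capitals and holds its first transcribed base, a C. Among the runs in capitals, those of SNHG5 and SNHG8 were the shortest, with 6 each. In SNHG12, SNHG5 and ZFAS1 the string TATATAA lay upstream of the run, and 901 of the 35116 RefSeq start regions (2.57%) held it on either strand in the 300 bases searched. That string was added after these sequences had been seen. Of the strings set earlier, TATAAA was found in 2 of the 9 regions, SNHG7 and SNHG1, and in 11.5% of all. CACGTG was found in 1, SNHG7, and in 7.26% of all. CCGGAAG was found in 0 of 9 and in 10.3% of all, which says only that these letters are not in these windows.

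GAS5 and EPB41L4A-AS1 were the 2 genes with no run at the RefSeq start, and for GAS5 the result turned on the annotation. The GENCODE 44 canonical transcript of GAS5 starts 1056 bases further downstream than the RefSeq transcript, and there its first base is a C inside a 7-base run. Both GAS5 starts are given here, with the pyrimidine run in capitals where there is one, and EPB41L4A-AS1, whose start is the same base in both annotations, follows for comparison.
GAS5, GENCODE start (chr1:173867960-173868029, minus strand): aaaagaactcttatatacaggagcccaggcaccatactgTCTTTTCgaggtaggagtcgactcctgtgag
GAS5, RefSeq start (chr1:173869016-173869085, minus strand): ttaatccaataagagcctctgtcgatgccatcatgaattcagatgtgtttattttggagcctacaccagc
EPB41L4A-AS1 (chr5:112160486-112160555, plus strand): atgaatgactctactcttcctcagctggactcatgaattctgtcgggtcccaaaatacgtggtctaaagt

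At the GENCODE canonical starts, 6 of the 10 host genes had a run, against 21.2% of the 20599 canonical starts of genes in the table. With a start from either annotation, 8 of the 9 genes that had both held a run, against 23.7% of 8785 genes, and EPB41L4A-AS1 was the 1 without. The canonical start of SNHG1 lies 37 bases upstream of the RefSeq start and that of SNHG5 15 bases upstream, and neither has the run within 5 bases.

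All 10 host RNAs were measured, each with a base mean above the median of the table. SNHG1, the host first described for SNORD22, had a base mean of 1125 normalized counts, and SNHG16, the host of the SNORD1 snoRNAs, had 1091. SNHG6, the host of SNORD87, had a base mean of 818, and SNHG8, the host of SNORA24, had 585. GAS5 itself had 438 and SNHG7, the host of the SNORA17 pair, 315. SNHG5, the host of SNORD50B, had a base mean of 223, EPB41L4A-AS1, the host of SNORA13, had 218, ZFAS1, the host of the SNORD12 snoRNAs, had 152, and SNHG12, which holds mostly H/ACA snoRNAs, had 66.5. The median base mean of all genes was 21.8 and that of the 3809 genes annotated as long non-coding RNA was 1.61. The lowest of the 10, SNHG12, stood above 64.4% of all genes in the table and the highest, SNHG1, above 96.8%.

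**Figure D1:**
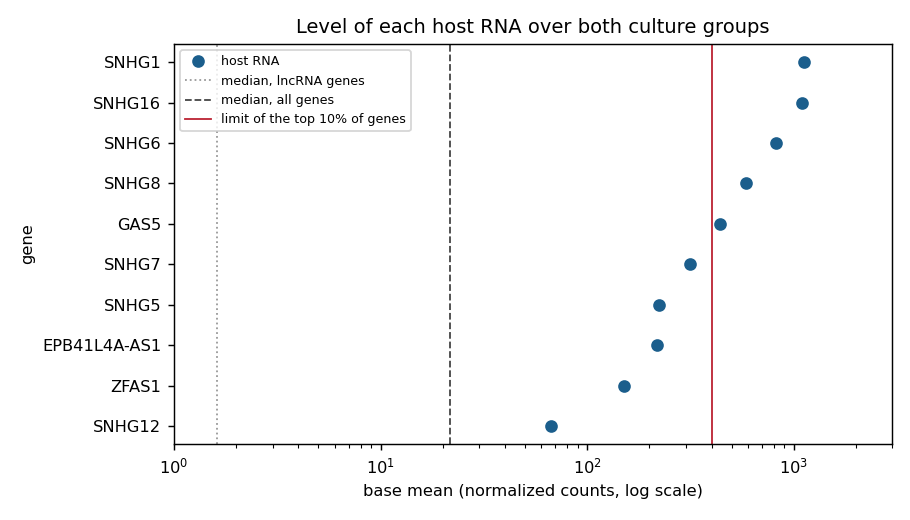
Base mean of each host RNA (x axis, normalized counts on a log scale; 1 point per gene, the authors' mean over both culture groups, with no error because no value per culture was used). All 10 points lie to the right of the median of all genes (21.8, dashed) and 5 lie beyond the limit of the top 10% of genes (401, solid); the dotted line is the median of long non-coding RNA genes (1.61).

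By base mean, 5 of the 10 host RNAs (SNHG1, SNHG16, SNHG6, SNHG8 and GAS5) were among the top 10% of genes, whose lower limit was 401 normalized counts. GAS5 was the last one inside that limit and SNHG7, with 315, the first one outside. Among the long non-coding RNA genes alone, SNHG1 took place 5, SNHG16 place 6, SNHG6 place 9, SNHG8 place 12, GAS5 place 18 and SNHG7 place 20. SNHG5 and EPB41L4A-AS1 followed at places 34 and 35, ZFAS1 at 52 and SNHG12 at 123. The 10 genes together held 0.0793% of the summed base means of the table and 9.35% of the sum over long non-coding RNA genes. SNHG1, SNHG16 and SNHG6 made up 60.3% of the sum of the 10.

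Levels were also set per length, and for these genes the length is itself uncertain. GENCODE 44 lists 91 transcripts for GAS5, 89 for SNHG5 and 80 for SNHG1, against 8 for SNHG6 and 9 for EPB41L4A-AS1. Per kilobase of merged exons, SNHG6 was highest with a base mean of 324 per kilobase, followed by SNHG1 with 283 and SNHG16 with 189. GAS5 (88.8 per kilobase) and SNHG8 (88.4) were next to each other, then SNHG7 (64.4) and EPB41L4A-AS1 (50.7). ZFAS1 (18.2), SNHG5 (17.7) and SNHG12 (15.6) were the lowest on this scale. The medians per kilobase were 76.4 for the 10 host RNAs, 5.53 for all genes and 1.19 for long non-coding RNA genes, and all 10 were above the median of all genes. The same 5 genes as by base mean were in the top 10% per kilobase of merged exons, whose limit was 82.9.

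The order of the 10 depended on which transcript was taken as the length. Per kilobase of the canonical transcript, SNHG16 was highest with 2191, since its canonical transcript is only 498 bases long. SNHG1 followed with 968 and GAS5 with 571, while SNHG6 took place 4 with 449. SNHG12 stayed last with merged exons, the longest transcript and the shortest transcript, and took place 9 with the canonical transcript, where ZFAS1 was last with 33.5 per kilobase. The highest value was 20.8 times the lowest with merged exons, 13.5 times with the longest and 65.4 times with the canonical transcript. The adapted CEL-seq protocol used here primes on the poly(A) tail and reads near the 3′ end, where the read count of a gene follows the number of transcript ends more than their length, so both scales are given. Neighbours in these orders, such as SNHG1 and SNHG16 with a ratio of base means of 1.03 or SNHG5 and EPB41L4A-AS1 with 1.03, could not be told apart without a spread.

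**Figure D2:**
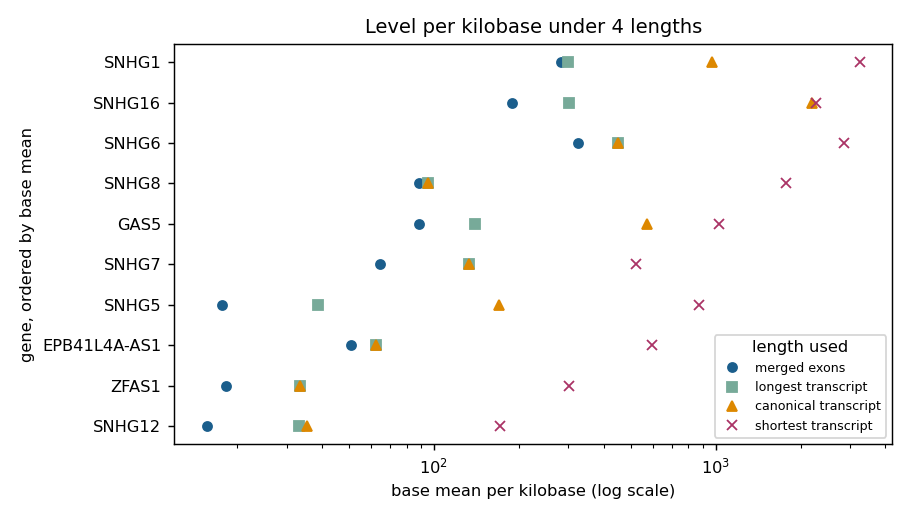
Base mean per kilobase (x axis, log scale) of each host RNA under 4 lengths: merged exons (circles), the longest transcript (squares), the canonical transcript (triangles) and the shortest transcript of at least 200 bases (crosses). The 3 genes with the highest base means, SNHG1, SNHG16 and SNHG6, lie furthest right with merged exons (189 to 324), and SNHG16 moves from 189 with merged exons to 2191 with its short canonical transcript.

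The host genes differ in size and in how many snoRNAs they hold. GAS5 (ENSG00000234741) is a minus-strand gene of chromosome 1 (GRCh38, 173858559 to 173868882), and its canonical transcript has 12 exons. SNHG1 (ENSG00000255717) is compact, with 11 canonical exons on chromosome 11 from 62851978 to 62855953 on the minus strand, and 7 box C/D snoRNA loci in its introns were read. SNHG16 (ENSG00000163597, chromosome 17, 76557727 to 76670985, plus strand) has 3 box C/D loci, and ZFAS1 (ENSG00000177410, chromosome 20, 49278178 to 49299600, plus strand), which lies head to head with ZNFX1, also has 3. SNHG12 (ENSG00000197989, chromosome 1, 28578538 to 28583132, minus strand) has 4 loci, 3 of them H/ACA and 1 box C/D.

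SNHG7 (ENSG00000233016, chromosome 9, 136721366 to 136728184, minus strand) has 2 H/ACA loci. The 4 genes for which 1 locus each was read are SNHG5 (ENSG00000203875, chromosome 6, 85650491 to 85678932, minus strand), SNHG6 (ENSG00000245910, chromosome 8, 66920561 to 66926398, minus strand), SNHG8 (ENSG00000269893, chromosome 4, 118278703 to 118285316, plus strand) and EPB41L4A-AS1 (ENSG00000224032, chromosome 5, 112160526 to 112164818, plus strand). The locus is box C/D in SNHG5 and SNHG6 and H/ACA in SNHG8 and EPB41L4A-AS1. In all, 23 loci (16 box C/D and 7 H/ACA) from 26 annotated records were read for 9 of the 10 genes, and all 23 lie in introns of the host's canonical transcript. The snoRNAs of GAS5 were not analysed here, and the other hosts may hold loci beyond those read.

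**Figure D3:**
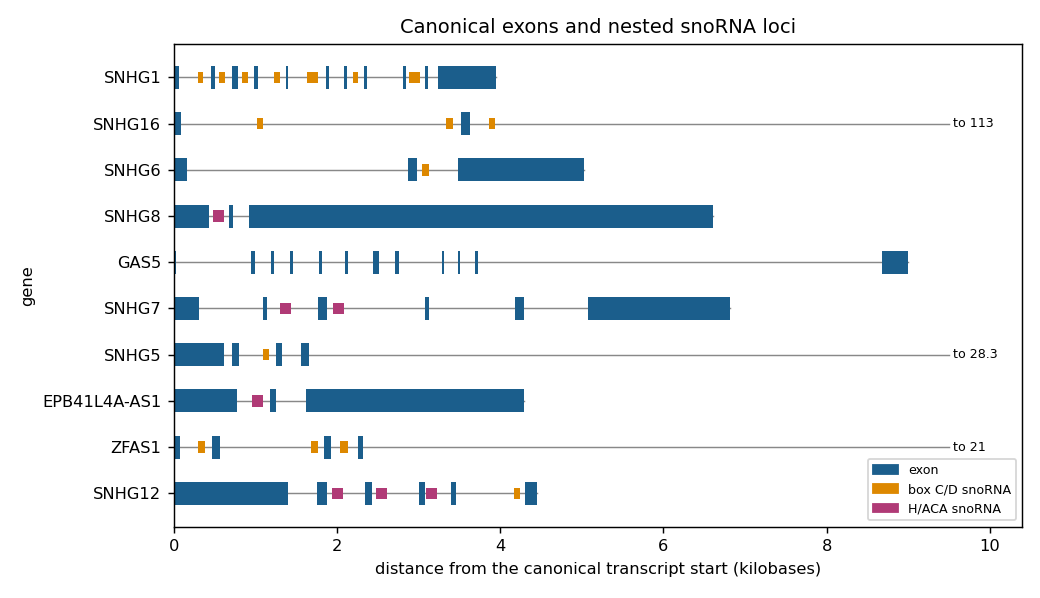
Exons of the canonical transcript (blue) and snoRNA loci (orange for box C/D, purple for H/ACA) of each host gene, by distance from the canonical start in kilobases, 5′ to the left. The drawing stops at 9.5 kilobases, and a label gives the full span where a gene runs on (SNHG16 to 113, SNHG5 to 28.3 and ZFAS1 to 21.0 kilobases); the 7 loci of SNHG1 lie between its exons, and the snoRNAs of GAS5 are not drawn.

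The intron-encoded products can be seen in the genome sequence (hg38, GRCh38). A box C/D snoRNA carries box C near its 5′ end and box D near its 3′ end, and sequences were read for 15 of the 16 box C/D loci, without that of SNHG6. Of these, 8 had the exact letters TGATGA within the first 25 bases together with CTGA near the end. The 15 loci were 69 to 126 bases long. Below, SNORD25 and SNORD27 from SNHG1 and SNORD50B from SNHG5 are shown because they hold both boxes in these letters, with the boxes in capitals.
SNORD25 (chr11:62855564-62855632, minus strand): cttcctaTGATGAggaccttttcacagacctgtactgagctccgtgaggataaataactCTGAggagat
SNORD27 (chr11:62855012-62855083, minus strand): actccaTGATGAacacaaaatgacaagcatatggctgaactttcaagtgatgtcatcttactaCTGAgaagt
SNORD50B (chr6:85677589-85677658, minus strand): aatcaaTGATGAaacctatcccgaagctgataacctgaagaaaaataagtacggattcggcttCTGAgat

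An H/ACA snoRNA ends 3 bases after the letters ACA, and 6 of the 7 H/ACA loci read did so. They were 130 to 136 bases long. SNORA13, the snoRNA of EPB41L4A-AS1, and SNORA24, that of SNHG8, are shown with the ACA box in capitals.
SNORA13 (chr5:112161485-112161617, plus strand): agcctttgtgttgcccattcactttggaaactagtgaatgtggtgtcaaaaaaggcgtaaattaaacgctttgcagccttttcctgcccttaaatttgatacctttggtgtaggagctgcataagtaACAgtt
SNORA24 (chr4:118279190-118279320, plus strand): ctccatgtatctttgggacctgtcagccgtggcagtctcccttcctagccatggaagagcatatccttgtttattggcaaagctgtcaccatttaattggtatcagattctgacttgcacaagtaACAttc

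The snoRNAs of SNHG16 are related copies. The longest run that SNORD1A, SNORD1B and SNORD1C share is 17 bases, given here in capitals, and it starts at base 18 of SNORD1A and at base 21 of the other two.
SNORD1A (chr17:76561634-76561705, plus strand): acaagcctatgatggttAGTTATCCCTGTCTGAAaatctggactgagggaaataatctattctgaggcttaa
SNORD1B (chr17:76561109-76561192, plus strand): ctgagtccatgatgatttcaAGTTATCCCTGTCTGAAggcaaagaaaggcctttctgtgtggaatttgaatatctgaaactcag
SNORD1C (chr17:76558791-76558868, plus strand): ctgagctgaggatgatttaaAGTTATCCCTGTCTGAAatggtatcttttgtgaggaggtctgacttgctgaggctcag

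The 3 snoRNAs of ZFAS1, SNORD12, SNORD12B and SNORD12C, shared a run of 9 bases, CAGATCGAC, which starts at base 36 in each.

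The hosts were measured in the table, and the nested snoRNAs hardly. Of the 26 nested records, 2 had a row: SNORD99, inside SNHG12, with a base mean of 1.34, and SNORD12C, inside ZFAS1, with 0.505. Their hosts had 66.5 and 152. Neither snoRNA reached a base mean of 5, and the other nested records had no value. The table held 32 genes named SNORD, SNORA or SCARNA in all, with a median base mean of 0.789, and 3 of them reached 5. SnoRNAs carry no poly(A) tail, and priming on that tail is the first step of the protocol. Whether this accounts for the low or missing values was not tested. Reads from an unspliced host and from the snoRNA itself cannot be told apart in these counts.

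The annotated 3′ ends of the canonical transcripts also differ among the 10 genes. This protocol reads near the 3′ end, but which ends these cells use could not be seen from base means. The poly(A) signal AATAAA or its common variant ATTAAA started 10 to 40 bases before the end of the canonical transcript in 5 of them, SNHG1, SNHG6 and SNHG12 with AATAAA and GAS5 and ZFAS1 with ATTAAA. The last 30 bases of SNHG12 and ZFAS1 are shown with the signal nearest the end in capitals. In SNHG12 another copy of AATAAA lies further upstream in the same line and is not in capitals.
SNHG12: aaaagaagaataaaaagactAATAAAagta
ZFAS1: ggctaaatcaagctaATTAAAatatgcatt

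Overlapping genes bear on how reads are assigned. A second gene, read from the same strand, had exons over 60.7% of the canonical transcript of SNHG5, and over 10.6% of its last 500 bases. That gene (ENSG00000271793, annotated as protein coding) has no row in the table. For ZFAS1 the share was 3.95% and for the other 8 genes 0%, GAS5 included. On the opposite strand, exons of MCMDC2 covered 100% of the last 500 bases of SNHG6, exons of DIPK1B those of SNHG7 and exons of EPB41L4A those of EPB41L4A-AS1. The opposite genes had base means of 6.34 (MCMDC2), 6.97 (DIPK1B) and 172 (EPB41L4A). EPB41L4A-AS1, with 218, and EPB41L4A were thus both measured, and the counter's default setting, which the study's methods name, separates them by strand. The part of these overlaps in the levels was not tested.

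Other genes of the snoRNA pathway were described from lists. The 8 core proteins that assemble with snoRNAs were all measured, with base means from 60.1 to 1195 and 5 of the 8 in the top 10% of genes. NOP58, a box C/D core protein, had 1195, DKC1, the pseudouridine synthase of H/ACA particles, 923, FBL, the box C/D methyltransferase, 864, and SNU13, which binds the box C/D fold, 664. Of the 9 assembly factors, ZNHIT6 had the highest base mean (454), followed by SHQ1 (325), NOLC1 (266) and PIH1D1 (195). Per kilobase of merged exons, the core proteins had a median of 164 and the assembly factors one of 28.4, on either side of the 76.4 of the host RNAs.

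The 29 protein-coding snoRNA hosts, most of them ribosomal protein and translation factor genes, had a median of 336 per kilobase of merged exons, against 76.4 for the 10 non-coding hosts. Not divided by length, the median base means were 1312 and 377, and 36.4 for the other non-coding hosts. RPL5 had the highest base mean of that list (5990), followed by TPT1 (5841), EEF2 (5808) and RPL13A (5413), and 23 of the 29 were in the top 10% of genes. Of 18 other non-coding hosts, 17 had a row, with a median of 12.1 per kilobase. LRRC75A-AS1, also named SNHG29, had a base mean of 2709, SNHG15 870, DANCR 215 and SNHG14 154. Per kilobase of merged exons LRRC75A-AS1 stood at 303, between SNHG1 and SNHG6.

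Genes that act on the spliced host RNAs were measured as well. All 11 nonsense-mediated decay factors had a row, with a median of 11.5 per kilobase, 0 of them in the top 10% by base mean, and UPF3B highest with a base mean of 346, before SMG1 (326), UPF2 (227) and SMG5 (167). Of the 11 genes that control TOP RNAs, LARP1, which binds the cap and the TOP tract, had a base mean of 2442. EIF4EBP2, a translation repressor under mTOR control, had 1368, SSB 517 and TIAL1 446. NR3C1, the glucocorticoid receptor that GAS5 can bind, had a base mean of 1298 and 142 per kilobase, against 438 and 88.8 for GAS5, and NR3C2, the mineralocorticoid receptor, had a base mean of 5.28. Among 12 other well-known long non-coding RNAs, MALAT1 had a base mean of 4188, NEAT1 1742, OIP5-AS1 771 and TUG1 467, with a list median of 21.4 per kilobase.

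**Figure D4:**
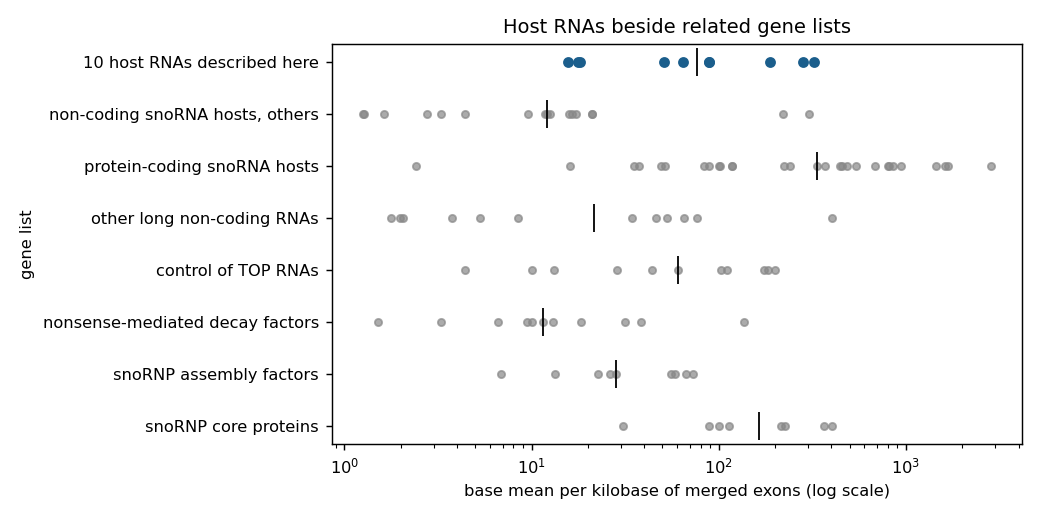
Base mean per kilobase of merged exons (x axis, log scale) for the 10 host RNAs (blue) and 7 lists of related genes (grey; 1 point per gene with a row in the table, black bar at the list median). The host RNAs have a median of 76.4, below the protein-coding hosts (336) and above the other non-coding hosts (12.1).

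The label of the cells was checked on podocyte markers. Of the 13 markers reported here, 11 had a row and 9 reached a base mean of 5. ACTN4 (14320.5), VEGFA (1407), CD2AP (929) and KIRREL1 (253), none of them restricted to podocytes, were highest, while NPHS1 and LMX1B, which are more specific, had no row in the table used here. Of 11 markers of other kidney and blood cells, 5 had a row, with ACTA2 at 1021 and AQP1 at 243, and PDGFRB (4.14) and PTPRC (0.832) under 5. The levels of the host RNAs are thus those of a cultured line in which NPHS1 and LMX1B had no value. Mitochondrially encoded genes (22) held 34.8% of the summed base means, and without them the 10 host RNAs held 0.122%.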

How the data were processed

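Adapted CEL-seq libraries of 3 vehicle and 3 levamisole cultures had been processed by the authors with Trim Galore 0.4.5 (cutadapt 1.18, FastQC 0.11.8), mapped to GRCh38 with STAR 2.7.5a, counted with HTSeq 0.11.0 and compared with DESeq2 1.22.0 in R 3.5.3, per the labels and the methods. The only value used was the deposited base mean, a signal made by the authors by dividing read counts by DESeq2 size factors and averaging over libraries. The other deposited columns hold the authors' own comparison (log2 fold change, its standard error, Wald statistic and p-values) and were not used, and 0 columns of single samples were left aside. The stated minimum of 5 reads per sample does not describe this table, whose lowest base mean is 0.194. Depth per library is unknown. No interval is given, because the base mean holds no value per culture and the authors' comparison columns were not used.

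Gene positions, types and exon lengths came from GENCODE 44 (20599 of 20745 identifiers matched), start regions from RefSeq on GRCh38.p14 and other sequences from hg38. Annotation is later than the authors' own. Python 3.11.15, NumPy 2.4.6, pandas 2.3.3 and matplotlib 3.10.9 were used. Searches were tested on simulated data. Members and lists were chosen with earlier results of these data known. Named are the members, overlapping genes, nested snoRNAs and the 4 genes of each list with the highest base mean. 1 podocyte marker is not reported here. In one list, C6orf48 and LRRC75A-AS1 stand for SNHG32 and SNHG29.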

Additional observations from a re-analysis of the deposited data

How the results depend on the processing

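No paired analysis was possible because the value used is a mean over libraries, with none per culture. For the same reason count models, other size factors and left-out replicates were not run. The share of the 10 host RNAs in the summed base means, 0.0793%, became 0.122% without mitochondrially encoded genes and 0.0794% when genes under a base mean of 5 were left out. The 5 host RNAs in the top 10% became 3 with those low genes left out, because the limit then rose to 619.9, and 10 among long non-coding RNA genes, whose limit was 19.9. The count was also 5 per kilobase of merged exons and without mitochondrially encoded genes. It was 5 per kilobase of the canonical transcript too (limit 144), but there SNHG5 (170 per kilobase) was inside and SNHG8 (94.9) outside. The 0 nested snoRNAs at a minimum base mean of 5 became 1 at a minimum of 1, and stayed 0 at 10. The 7 start regions with a pyrimidine run became 3 (SNHG7, SNHG12 and SNHG16) with a run of at least 8, against 11.4% of all start sites, and 8 within 20 bases of the start, against 44.7%. The canonical lengths, canonical starts and the count in the top 10% without mitochondrial genes were added after the data had been seen.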

Other observations

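The pyrimidine run was also counted at RefSeq starts of the other lists, where a gene can have several starts. It was present at 17 of 29 start sites of protein-coding snoRNA hosts (58.6%), of which 18 began with C, and at 6 of 12 start sites of the other non-coding hosts. It was present at 6 of 15 for genes that control TOP RNAs, 3 of 8 for snoRNP assembly factors, 1 of 7 for snoRNP core proteins, 2 of 15 for other long non-coding RNAs and 0 of 16 for nonsense-mediated decay factors, against 22.9% of all start sites. The run was present at 4 of 15 start sites of podocyte markers and at 2 of 8 of markers of other kidney and blood cells. For NR3C1 and NR3C2 it was present at 2 of 11 start sites. These shares are descriptions and were not tested.

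The RefSeq starts of GAS5 and EPB41L4A-AS1, the 2 without a pyrimidine run, both follow directly on the letters GAATTC, as the printed lines show. The same 6 letters stand right before the start at 19 of all 35116 RefSeq start sites (0.0541%). This was noticed after the sequences had been seen. GAATTC is the recognition site of the restriction enzyme EcoRI, and whether it has any part in where these starts were placed was not tested.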
